A study of Mus musculus with 18 samples.

Results

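Microglia are the resident immune cells of the brain, and 9 genes that mark them (P2ry12, Csf1r, C1qa, C1qb, C1qc, Cx3cr1, Tmem119, Aif1 and Trem2) were followed in RNA purified from neurons. The genes were found by the Ensembl identifiers of their symbols, 9 of the 39017 gene identifiers in the deposited count tables, and all 9 were present. The RNA came from mouse brain by translating ribosome affinity purification (TRAP), in which tagged ribosomes of a chosen cell type are pulled down together with the mRNA they carry. A gene of an untagged cell should be depleted in such RNA, so the counts of microglial genes gauge what came along from other cells.

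The 18 libraries, each from 1 mouse, formed 2 experiments on Ptbp1, an RNA-binding protein that controls splicing, in layer II neurons of the entorhinal cortex. The silencing experiment had 4 libraries with the label Ptbp1 shRNA and 5 with the label scrambled shRNA, and the overexpression experiment 5 mice injected with a vector for Ptbp1 and 4 with the control vector. Every vector also carried mCherry, both entorhinal cortices of a mouse were pooled, and the authors left out 1 mouse labelled Ptbp1 shRNA and 1 with the control vector for want of mCherry reads. The tissue label of each library reads hippocampus, while the entorhinal cortex is named in the title and the design text. No promoter for the ribosome tag, strain, age or sex stands in the labels, and no library of total tissue RNA was analysed here, so the levels below are levels in the purified RNA and not a degree of depletion.

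Microglia depend on the growth factor receptor encoded by Csf1r, whose ligands are Csf1 and Il34, and they answer neurons through Cx3cr1, the receptor of the neuronal chemokine Cx3cl1. P2ry12 is a receptor for nucleotides with which microglia sense nearby injury, Tmem119 is a membrane protein used to tell microglia from other macrophages, and Aif1 encodes the calcium-binding protein Iba1. C1qa, C1qb and C1qc encode the 3 chains of complement C1q, which tags synapses and debris for removal, and Trem2 is a lipid receptor that signals through the adaptor Tyrobp.

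The transcription factor PU.1, encoded by Spi1, is a main regulator of microglial genes and binds an ETS core of the letters GGAAGT. This core was searched on both strands in the RefSeq promoters (build GRCm38.p6) of the members, each 300 bases long with 250 before the gene's start. Promoters of 6 members were found in the table (those of C1qa, Csf1r and Tmem119 were not), and 3 of the 6 held the core, against 23.8% of all 32851 promoters of that length. Windows of 30 bases around the 3 matches are shown 5′ to 3′ on the gene's own strand, with the core or its reverse complement in capitals. They are shown because P2ry12 and 2 of the complement genes have these searched letters in common.
P2ry12: agctaacaagaaGGAAGTtccccagtgaca
C1qb: acaggacctgaaACTTCCtgagggcagcag
C1qc: gggacggcagacACTTCCtcattttggcac
The window of P2ry12 lies at chr3:59263019-59263048, that of C1qb at chr4:136886236-136886265 and that of C1qc at chr4:136893092-136893121, all on the minus strand. The match lies 51 bases before the start in P2ry12, 53 in C1qb and 195 in C1qc. The promoters of Cx3cr1, Aif1 and Trem2 did not hold these letters in this window. A match is a description of the sequence and not a measured binding site.

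The silencing libraries were the deeper ones, with 34339355 to 46544178 gene counts against 18288627 to 39056655 in the overexpression experiment, yet they detected fewer genes, 14841 to 17908 against 19893 to 21456. Among well covered exon bins, stretches of exon that average 50 counts or more, the share at 0 per library was 1.24% to 8.30% in silencing and 0.0213% to 0.0551% in overexpression. The common biological coefficient of variation was 90.6% in the silencing experiment and 22.3% in the overexpression experiment. Ptbp1 itself was 137 ± 14.9 CPM (counts scaled to library size, SD, n = 5) with the Ptbp1 vector and 13.3 ± 3.03 (n = 4) with the control vector. It was 5.09 ± 6.10 CPM (n = 4) in the libraries labelled Ptbp1 shRNA and 4.10 ± 3.76 (n = 5) in those labelled scrambled shRNA, so the labels of the silencing experiment are used below without a measured fall of Ptbp1 behind them.

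In the overexpression experiment the microglial markers had counts at a low level in nearly every library. Each of its 9 libraries held 8 or 9 of the 9 members with at least 1 count, and only 3.70% of the members' values were 0. The members together made up 6.28 to 9.01 CPM in the control libraries and 8.31 to 13.8 CPM in the Ptbp1 overexpression libraries. Csf1r alone made up 37.7% to 66.5% of these sums, and its last exon bin is shared with another gene, Hmgxb3. Without Csf1r the sums ran from 2.22 to 7.94 CPM over both groups. A list of 12 genes of layer II excitatory neurons summed to 18338 to 22747 CPM in the control and 14577 to 19411 CPM in the overexpression libraries. In bulk RNA, fewer cells of a type and less RNA per cell cannot be told apart.

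The silencing experiment gave a different picture from the same 9 genes. A library held counts of 2 to 6 of the members, with a median of 3, and 63.0% of the members' values were 0. C1qa and Trem2 had 0 counts in all 9 libraries. At this depth 3 counts correspond to 0.0636 to 0.0973 CPM, a level below which a gene can be missed by counting error alone. Well covered exon bins were also at 0 in these libraries, so the zeros of C1qa and Trem2 set no upper limit of that size. Where a member was seen, the 2 highest libraries held 70.8% to 100% of its counts. The members' sum ran from 2.21 to 19.5 CPM in the libraries labelled scrambled shRNA and from 0.056 to 5.11 CPM in those labelled Ptbp1 shRNA.

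The complement genes lie side by side on the minus strand of chromosome 4 (mm10), C1qb at chr4:136880129-136886187, C1qc at chr4:136889804-136893065 and C1qa at chr4:136895917-136898803. P2ry12 lies at chr3:59216272-59262871, Tmem119 at chr5:113793729-113800516, Aif1 at chr17:35170991-35176068 and Trem2 at chr17:48346401-48354147. The annotated span of Cx3cr1, chr9:119901616-120069879, also takes in genes on the opposite strand, among them Wdr48 and Ttc21a.

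**Figure D1:**
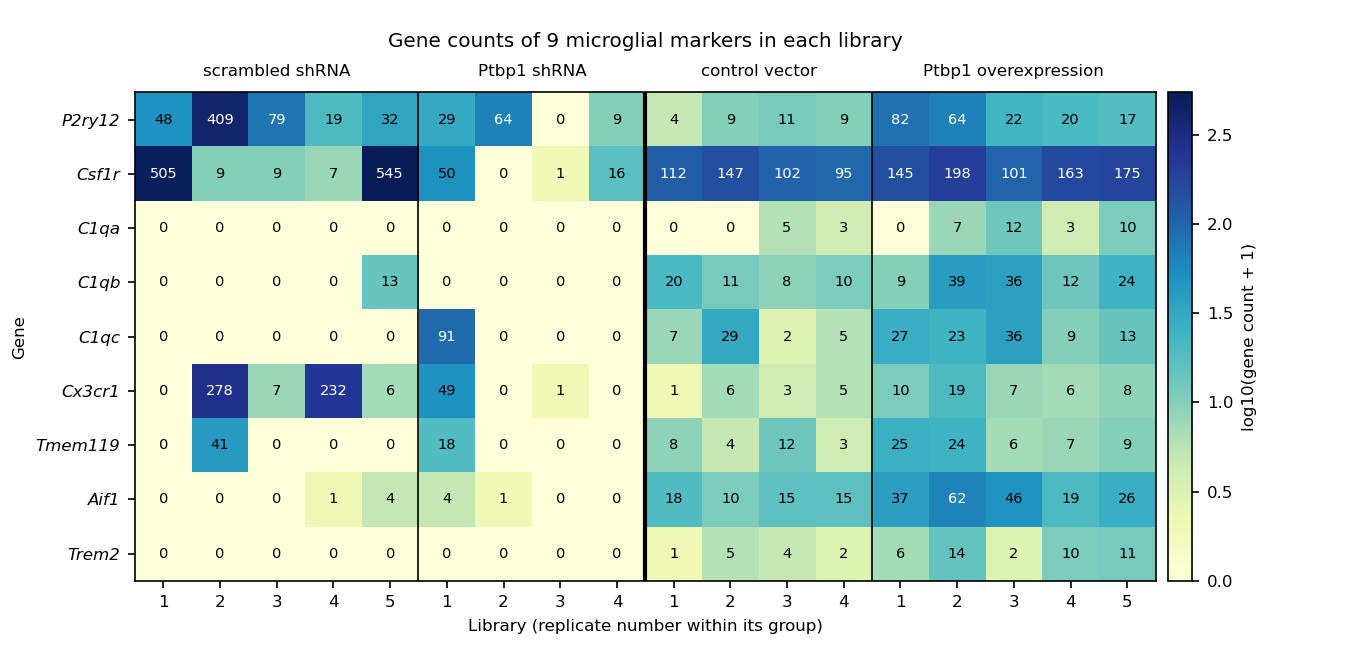
Gene counts of the 9 microglial markers (rows) in each of the 18 libraries (columns, grouped by treatment), with colour by log10(count + 1). In the silencing libraries on the left most cells are 0 and single cells are high, such as 545 counts of Csf1r or 91 of C1qc, while in the overexpression libraries on the right nearly every member has counts, from 1 to 198 where it is not 0.

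Per length of transcript and as counted, Csf1r had the highest level of the members with the control vector, at a mean of 1.04 RPKM (CPM per kilobase of exon, n = 4). That value includes its last bin, which it shares with Hmgxb3, and its place without that bin was not ranked. It was followed by C1qb at 0.495, Aif1 at 0.430, C1qc at 0.229, P2ry12 at 0.166, Tmem119 at 0.140, C1qa at 0.0977, Cx3cr1 at 0.0439 and Trem2 at 0.0277 RPKM. In this order Csf1r (lowest library 0.831) and C1qb (highest library 0.779) were the only neighbours whose libraries did not overlap. With the Ptbp1 vector (n = 5) the order began with Csf1r at 1.18, Aif1 at 0.904, C1qb at 0.861 and P2ry12 at 0.575 RPKM and ended again with Cx3cr1 at 0.0936 and Trem2 at 0.0635, and every neighbouring pair overlapped. The same limit holds for the place of Csf1r here. The exon length takes in every bin, also bins nearly or wholly without counts. In Trem2 such bins span 1861 and 1874 of its 4946 bases, and in C1qc 728 of 1931. Their places thus depend in part on the annotated length.

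All 9 members had a higher mean CPM with the Ptbp1 vector than with the control vector, and none of them passed the test after adjustment over all genes. Of the 9, 5 had enough counts to enter edgeR's quasi-likelihood test (P2ry12, Aif1, C1qb, C1qc and Csf1r). None of the 5 was called at an adjusted p of 0.05, where 0.0425% of all genes were called (7 genes), and 2 of the 5 had an unadjusted p under 0.05, as did 4.78% of all genes. All 5 had a positive log2 fold change, as did 8236 of the 16480 genes tested, and their median was 0.81. P2ry12 and C1qc passed the count filter mainly through the overexpression libraries (medians of 22 and 23 counts against 9 and 6 in the control libraries). Their sign is therefore not independent of the filter. DESeq2, which called 40 genes, and limma-voom, which called 8, also called no member. The p-values here measure the spread between mice of a group, 1 library each.

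P2ry12 showed the largest difference among the 5 members tested. The Ptbp1 overexpression libraries had 2.0, 1.97, 1.05, 0.827 and 0.751 CPM of it, and the control libraries 0.169, 0.356, 0.612 and 0.385 CPM. Every overexpression library lay above every control library, which held for 1.13% of the genes tested. The log2 fold change was 1.81 (SE 0.50, 95% interval 0.74 to 2.89), with an unadjusted p of 0.00282 and an adjusted p of 0.678 in edgeR. The counts behind it were small, 4 to 11 per control library and 17 to 82 per overexpression library. Med12l, in whose span P2ry12 lies on the opposite strand, was 39.3 ± 5.89 CPM with the Ptbp1 vector and 41.6 ± 4.38 with the control vector (SD, n = 5 and 4, log2 fold change -0.08, SE 0.13).

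Aif1, the gene of Iba1, had 0.901, 1.90, 2.19, 0.786 and 1.15 CPM with the Ptbp1 vector and 0.763, 0.396, 0.834 and 0.641 CPM with the control vector. Of the 5 overexpression libraries, 4 lay above the highest control library. Its log2 fold change was 1.07 (SE 0.44, 95% interval 0.13 to 2.01), with an unadjusted p of 0.0285 and an adjusted p of 0.974 in edgeR.

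The complement genes varied widely between the libraries of a group. C1qb had 0.219, 1.20, 1.71, 0.496 and 1.06 CPM with the Ptbp1 vector and 0.847, 0.436, 0.445 and 0.427 CPM with the control vector (log2 fold change 0.77, SE 0.57). C1qc had 0.658, 0.706, 1.71, 0.372 and 0.574 CPM against 0.297, 1.15, 0.111 and 0.214 CPM (log2 fold change 0.81, SE 0.66). For both genes the groups overlapped, and Ptbp1 overexpression replicate 3 was the highest. Single libraries moved both values: without that library the log2 fold change was 0.44 for C1qb and 0.35 for C1qc, and without control vector replicate 2 it was 1.90 for C1qc (unadjusted p = 0.0155 in edgeR). C1qa, the lowest of the chains, had 0, 0.215, 0.570, 0.124 and 0.442 CPM against 0, 0, 0.278 and 0.128 CPM. It was below the count filter and was compared by an exact two-sided permutation test on log2(CPM + 0.5), a scale that understates changes of low genes (difference 0.33, SE 0.25, p = 0.317).

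Among the other members below the filter, Cx3cr1 had 0.244, 0.584, 0.333, 0.248 and 0.353 CPM with the Ptbp1 vector and 0.0424, 0.238, 0.167 and 0.214 CPM with the control vector. The groups did not overlap, by the narrow gap between 0.244 and 0.238 CPM. Such a gap, with all overexpression libraries higher, held for 1.13% of the genes tested. The share among genes below the filter was not counted, and the permutation p that follows restates the gap. The difference on the log2(CPM + 0.5) scale was 0.35 (SE 0.14), with an exact permutation p of 0.0159, unadjusted, which is the lower limit of this test with 9 libraries and was 1 of 9 such tests in both experiments. Counts of Cx3cr1 were only 6 to 19 and 1 to 6 per library. Trem2 had 0.146, 0.430, 0.0951, 0.414 and 0.486 CPM against 0.0424, 0.198, 0.222 and 0.0855 CPM (difference 0.33, SE 0.18, exact permutation p = 0.143). Tmem119 had 0.609, 0.737, 0.285, 0.290 and 0.398 CPM against 0.339, 0.158, 0.667 and 0.128 CPM (difference 0.25, SE 0.24, exact permutation p = 0.349). Both overlapped between groups.

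**Figure D2:**
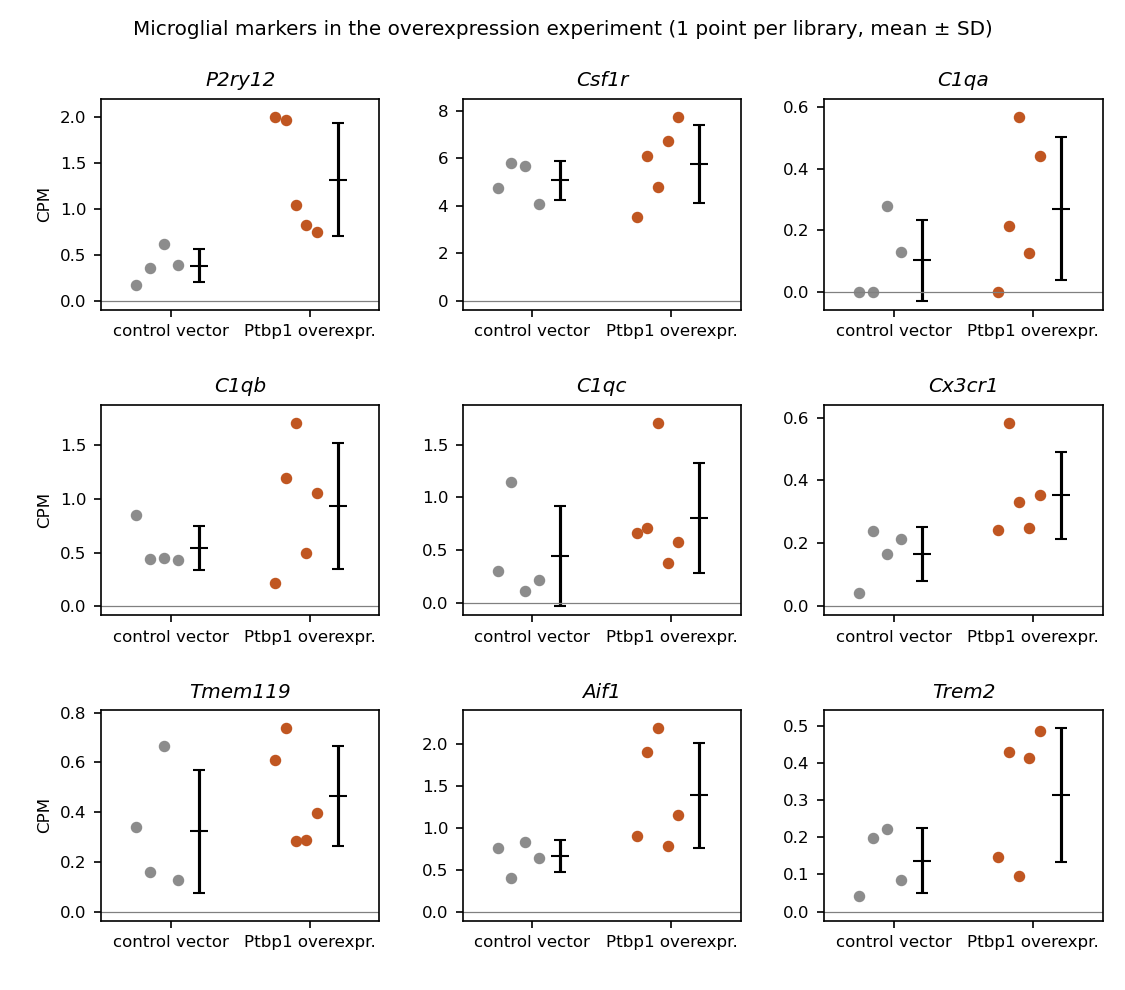
CPM of each microglial marker in the overexpression experiment, with 1 point per library and the mean ± SD beside the points (4 control and 5 Ptbp1 overexpression libraries, a separate axis per gene). The groups stand apart for P2ry12 and, narrowly, for Cx3cr1, and overlap for the other 7 members. All overexpression libraries lay above all control libraries for 1.13% of the genes tested, a share that leaves out low genes such as Cx3cr1.

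Csf1r, the member with the most counts in this experiment, differed least on the log2 scale among the 5 tested. The Ptbp1 overexpression libraries had 3.53, 6.08, 4.80, 6.74 and 7.73 CPM and the control libraries 4.75, 5.82, 5.67 and 4.06 CPM (log2 fold change 0.18, SE 0.24, 95% interval -0.32 to 0.69). It made up 37.7% to 66.5% of the members' summed CPM in these libraries.

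The exon bins showed where these counts lay. Csf1r has 24 bins, and its last bin, 1015 bases in the untranslated end of the gene, shares 873 bases with the first bin of Hmgxb3, a gene on the opposite strand. In the overexpression experiment this bin held 531 of the 751 bin counts of Csf1r (70.7%). The sources used here do not say if counting used the strand, so the reads of the shared bases cannot be told apart between Csf1r and Hmgxb3. The 23 bins outside it held 10, 68, 6, 54 and 17 counts with the Ptbp1 vector and 18, 16, 14 and 17 with the control vector. Scaled to the library's bin counts that is, in CPM, 1.55 ± 1.34 and 0.991 ± 0.103 (SD, n = 5 and 4), a log2 difference of 0.20 (exact permutation p = 0.683), and overexpression replicates 2 and 4 stood above all others. The last bin alone gave a log2 difference of 0.08 (exact permutation p = 0.730). This split of the bins was chosen after the data were seen.

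Among the silencing libraries the last bin held 556 of the 561 bin counts of Csf1r (99.1%), 5 more lay in the bin before it, and bins 1 to 22 held 0. The libraries labelled scrambled shRNA had 505, 9, 9, 7 and 545 gene counts of Csf1r and those labelled Ptbp1 shRNA 50, 0, 1 and 16. Scrambled shRNA replicates 1 and 5 thus carried 91.9% of all its counts. In those libraries the last bin of Csf1r had 260 and 253 counts, and the overlapping bin of Hmgxb3 had 294 and 292. In Ptbp1 shRNA replicate 4 the values were 9 and 182, so both bins did not always go together.

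**Figure D3:**
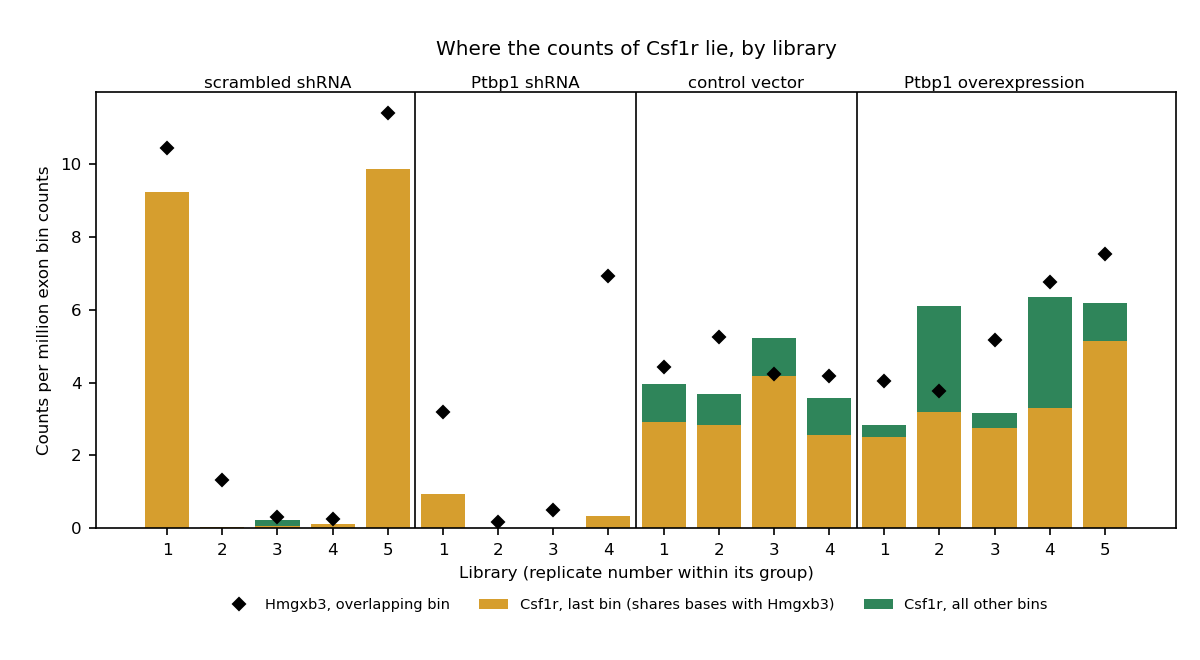
Counts, scaled to CPM of all exon bin counts, in the last bin of Csf1r (yellow), in its other 23 bins (green) and in the overlapping bin of Hmgxb3 (diamonds), for each of the 18 libraries by group. Green is nearly absent from the silencing libraries, where 99.1% of the Csf1r counts lie in the last bin, and varies between the overexpression libraries.

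Of the 9 members, 2 (Csf1r and P2ry12) entered edgeR's test in the silencing experiment, and neither was called. Csf1r had 13.1, 0.215, 0.209, 0.153 and 17.7 CPM in the libraries labelled scrambled shRNA and 1.06, 0, 0.028 and 0.418 CPM in those labelled Ptbp1 shRNA. The groups overlapped, and the log2 fold change of -4.04 (SE 1.91, 95% interval -8.16 to 0.08) had an adjusted p of 0.457 in edgeR. Without scrambled shRNA replicate 1 or 5 Csf1r had too few counts to be tested. P2ry12 had 1.25, 9.76, 1.84, 0.414 and 1.04 CPM against 0.614, 1.61, 0 and 0.235 CPM, with a log2 fold change of -2.21 (SE 1.52, 95% interval -5.49 to 1.07) and an adjusted p of 0.648 in edgeR. Without scrambled shRNA replicate 2 the log2 fold change of P2ry12 was -0.88.

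Over all genes of the silencing experiment edgeR called 0% of 14656, while 1639 genes (11.2%) had an unadjusted p under 0.05. With DESeq2 the count was 426 and with weighted limma-voom 69, and no member was among them. An absence of calls among the members is therefore no measure of their stability.

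P2ry12, like Csf1r, had counts in 8 of the 9 silencing libraries, with 48, 409, 79, 19 and 32 counts in the libraries labelled scrambled shRNA and 29, 64, 0 and 9 in those labelled Ptbp1 shRNA. Of its 380 bin counts, 94.2% lay in bin 2, the 1897 bases at chr3:59216360-59218256 (mm10) that hold coding sequence and the transcript's end, and the rest in bin 3. In the overexpression experiment 5 of its 6 bins had counts, and bin 2 held 74.4%.

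The chemokine receptor Cx3cr1 had 0, 278, 7, 232 and 6 counts in the scrambled libraries and 49, 0, 1 and 0 in those labelled Ptbp1 shRNA. Its bin counts fell into different stretches in different libraries. In scrambled shRNA replicate 2, 128 lay in bin 2 and 3 in bin 3, and in scrambled shRNA replicate 4, 0 lay in bin 2 and 115 in bin 3. The difference between the groups on the log2(CPM + 0.5) scale was -1.21 (SE 0.92, exact permutation p = 0.302).

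C1qb, C1qc, Tmem119 and Aif1 had counts in 1 to 4 of the silencing libraries each. C1qc had 91 counts in Ptbp1 shRNA replicate 1 and 0 in the other 8, and all of its 39 bin counts lay in bin 1. C1qb had 13 counts in scrambled shRNA replicate 5 and 0 elsewhere. Tmem119 had 41 counts in scrambled shRNA replicate 2 and 18 in Ptbp1 shRNA replicate 1. Aif1 had 1 to 4 counts in 4 libraries. Exact permutation tests between the groups gave p = 0.889 for C1qc and p = 1 for C1qb, Tmem119 and Aif1. With counts in only 1 library, as for C1qb and C1qc, this p is set by the group of that library, whatever the count. With so few libraries holding counts, the tests cannot tell whether these 4 members differed. Ptbp1 shRNA replicate 1 held 6 members with counts, the most of the 9 silencing libraries.

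Whether a member responded differently in both experiments was tested in 1 fit of the 18 libraries, with a mean for each of the 4 groups and a common spread. Of 7 members tested, none was called, where 0.225% of 17779 genes were, and 4 had an unadjusted p under 0.05 against 14.6% of all genes. P2ry12 had a difference of log2 fold changes of 4.01 (SE 1.64, adjusted p = 0.250 in edgeR), Csf1r of 4.23 (SE 1.85, adjusted p = 0.292) and C1qb of 5.47 (SE 2.16, adjusted p = 0.243), all higher in overexpression. The value of C1qb rests on 13 silencing counts in 1 library, and 91.9% of the silencing counts of Csf1r lay in 2 libraries. C1qc differed in the other direction, by -6.38 (SE 2.33, adjusted p = 0.204), a value set by its 1 library with counts in the silencing experiment.

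The control groups of both experiments were also set side by side, where experiment, vector and library preparation cannot be told apart. Of 4 members tested 2 were called, against 34.2% of 16249 genes. P2ry12 was higher in the scrambled than in the control vector libraries, by 3.40 on the log2 scale (SE 1.13, adjusted p = 0.0377 in edgeR), and Aif1 was lower, by -3.89 (SE 1.25, adjusted p = 0.0327). With all libraries the 2 called members thus went in opposite directions. Aif1 had 0 to 4 counts per scrambled library and 10 to 18 per control vector library. It therefore passed the count filter only through the group where it was higher. Leaving out any 1 of the 4 control vector libraries ended both calls with fold changes of about the same size (3.15 to 3.70 and adjusted p between 0.0772 and 0.110 for P2ry12, -3.76 to -4.06 and adjusted p between 0.0641 and 0.0805 for Aif1). Without scrambled shRNA replicate 2, the highest for P2ry12, that fold change was 2.06 with an adjusted p of 0.0795 in edgeR. Aif1 was at -3.82 with an adjusted p of 0.0502 without scrambled shRNA replicate 4, and at -5.67 with an adjusted p of 0.00262 in edgeR without scrambled shRNA replicate 5, its highest scrambled library. C1qb, not called with all libraries (-2.20, SE 1.52), was called without scrambled shRNA replicate 5 (-6.83, adjusted p = 0.00306), the only scrambled library with counts of it. That fit sets a scrambled group wholly at 0 against 8 to 20 counts per control vector library. C1qb thus also passed the count filter only through the group where it was higher, and its direction and call are not independent of the filter.

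Without Csf1r, left out here because of its shared bin and after its values were seen, the other 8 members summed to 2.5, 2.93, 3.34 and 2.22 CPM in the control vector libraries. They summed to 4.78, 7.74, 7.94, 3.56 and 5.21 CPM in the Ptbp1 overexpression libraries. The lowest overexpression library lay just above the highest control library, and the ratio of the means was 2.13. With Csf1r the groups overlapped, and the ratio was 1.49. For the silencing experiment the 8 members summed to 1.25, 17.4, 2.0, 5.49 and 1.78 CPM in the libraries labelled scrambled shRNA and 4.05, 1.64, 0.028 and 0.235 CPM in those labelled Ptbp1 shRNA, which overlapped.

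**Figure D4:**
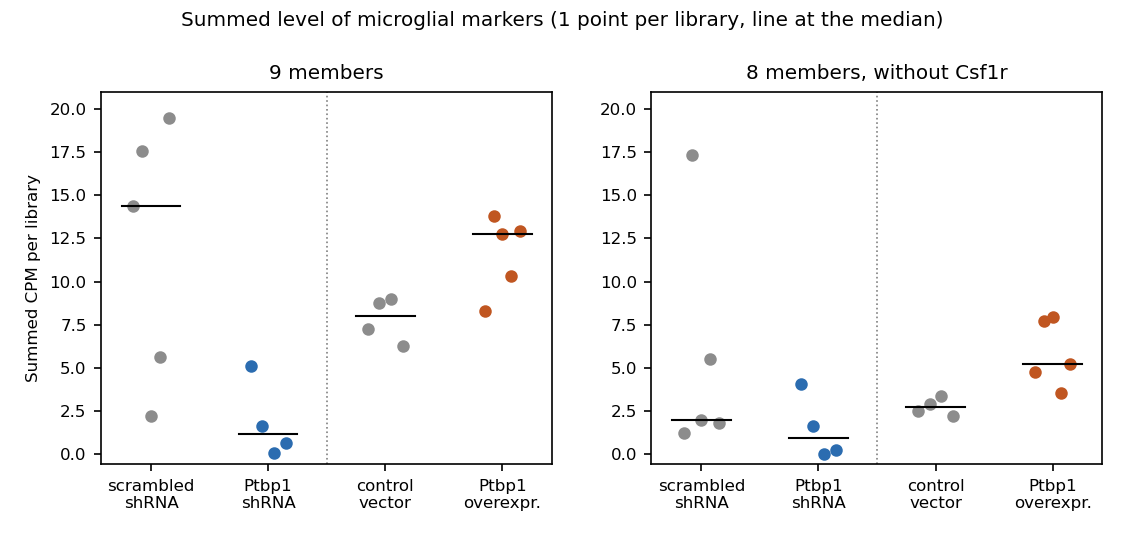
Summed CPM per library of all 9 microglial markers (left) and of the 8 without Csf1r (right), with 1 point per library and a line at each group's median. On the right the Ptbp1 overexpression libraries lie at 3.56 to 7.94 CPM and the control vector libraries at 2.22 to 3.34 CPM, while the silencing groups overlap in both panels.

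A second list of 30 genes known from microglia had sums that overlapped between the groups. Of its 16 genes tested in the overexpression experiment, 11 had a positive log2 fold change, as did 8236 of all 16480 genes tested. Their median was 0.28. None was called, against 0.0425% of all genes, and 1 had an unadjusted p under 0.05, against 4.78% of all genes. That gene was Tyrobp, the adaptor of Trem2, at 0.997 ± 0.774 CPM with the Ptbp1 vector and 0.334 ± 0.223 with the control vector (SD, n = 5 and 4, log2 fold change 1.57, SE 0.70, adjusted p = 0.974 in edgeR). Tyrobp had 10 to 46 counts per overexpression library and 1 to 13 per control library. It thus passed the count filter mainly through the overexpression libraries, and its sign is not independent of the filter. The list's sum was 29.9 to 45.7 CPM with the Ptbp1 vector and 31.9 to 42.7 CPM with the control vector. It includes Lgmn, a lysosomal enzyme that neurons also express, at 14.1 ± 3.94 CPM against 14.6 ± 2.83 CPM. Spi1, the gene of PU.1, had 0.270 ± 0.225 CPM with the Ptbp1 vector and 0.481 ± 0.440 with the control vector, and Irf8, a further myeloid transcription factor, 0.453 ± 0.258 and 0.708 ± 0.545 CPM. Spi1 and Irf8 were named after their values were seen.

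The zeros of the silencing experiment were as frequent in the second list, 68.1% of its values against 7.78% in the overexpression experiment. Olfml3, Fcgr3, Cd14, Ltc4s and Tmem173 had 0 counts in all 9 silencing libraries. Zeros were also common in markers of border macrophages (76.4% against 23.6%) and vessels (58.0% against 3.70%). They were rarer in the astrocyte list (10.2% against 0%) and absent from the layer II list in both experiments.

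Other cells of the tissue were followed by lists of their own. Of 11 markers of other leukocytes, 69.7% of values were 0 in the overexpression experiment, Cd3g was at 0 throughout, and the summed level was 0.424 to 3.88 CPM with the control vector and 0.658 to 3.66 with the Ptbp1 vector. The 8 border macrophage markers summed to 2.28 to 3.89 CPM with the control vector and to 1.45 to 4.51 with the Ptbp1 vector. The 12 astrocyte markers, far more abundant, summed to 630.1 to 921 CPM and to 469 to 885 CPM in the same order. The summed levels of the groups overlapped in each of these lists. Of the 12 astrocyte markers 2 had an unadjusted p under 0.05 in edgeR, against 4.78% of all genes tested. Both were higher with the Ptbp1 vector and not called. S100b had 17.7 ± 5.34 against 11.6 ± 2.95 CPM (SD, n = 5 and 4), higher by 0.62 on the log2 scale (SE 0.22, adjusted p = 0.917 in edgeR). Sox9 had 11.5 ± 4.39 against 7.57 ± 1.29 CPM, higher by 0.61 on that scale (SE 0.25, adjusted p = 0.974 in edgeR). Their part in the higher member values was not tested.

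The ligands of Cx3cr1 and Csf1r were also measured. Cx3cl1, the ligand of Cx3cr1, had 183 ± 23 CPM with the control vector and 163 ± 42.6 with the Ptbp1 vector (SD, n = 4 and 5, log2 fold change -0.17, SE 0.17). Il34, the ligand of Csf1r that neurons make, had 19.3 ± 4.45 and 17.2 ± 2.61 CPM (log2 fold change -0.16, SE 0.17), and Csf1 2.56 ± 0.944 and 2.03 ± 0.684 CPM (log2 fold change -0.35, SE 0.33). None of the 3 ligands was called. Among the silencing libraries Cx3cl1 had 58.0 ± 21.6 CPM in the libraries labelled scrambled shRNA and 43.6 ± 17.1 in those labelled Ptbp1 shRNA, and Il34 4.56 ± 1.61 and 1.56 ± 1.57 CPM (SD, n = 5 and 4). Of the 17 ligands and partners listed, 11 were tested in overexpression, 5 higher and 6 lower, and 8 in silencing, 4 each way, with none called. Of the 14 genes of disease-associated microglia, 9 were tested in overexpression (4 higher, 5 lower) and 5 in silencing (2 higher, 3 lower), none called.

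Across the 9 libraries of the overexpression experiment correlations were computed for 36 pairs of members. Of these, 33 had a positive Pearson correlation on the log2(CPM + 0.5) scale, with a median of 0.37 and a range from -0.17 to 0.82. The libraries of a pair share their depth and group, and group means were kept in, so that a difference between the groups common to both members also gives a positive value. Of the pairs, 6 had an exact permutation p under 0.05 but none after Benjamini-Hochberg adjustment over the 36 (lowest adjusted p 0.152). The pair with the highest value was Csf1r and Trem2 (r = 0.82, exact permutation p = 0.00813, Spearman's rho = 0.85, exact permutation p = 0.00607), which rose to 0.93 without the 2 libraries farthest from the median. In these libraries 70.7% of the bin counts of Csf1r lay in the last bin, which it shares with Hmgxb3, and Trem2 had only 1 to 14 counts per library. C1qb and Aif1 (r = 0.80, rho = 0.67) fell to 0.38 without 2 libraries, so that relation rests on them. In the silencing experiment 12 of 21 pairs were positive, with a median of 0.02, and none passed adjustment.

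Genes other than the members whose log2 CPM averages 0 or more were ranked by how closely they followed the members' mean, group means removed. The closest of these genes were not known markers of microglia. In the overexpression experiment they included Ier2 (r = 0.97 over 9 libraries), Sag, Sept9, A330008L17Rik, Usf2, Mri1 and 4930579G18Rik, and in the silencing experiment they were Acat2 (r = 0.93 over 9 libraries), Tmem231, Mlst8, Cndp2, Ehd4, Xrcc2, Rfx1 and Ccdc141. Of the second microglia list, 1 of 7 genes ranked in overexpression and 0 of 5 in silencing were among the closest 100. Most of that list's 30 genes lay below the required level or the count filter and could not appear. The absence of microglial markers is therefore in large part fixed by that choice. With 9 libraries and 14923 and 13602 genes ranked, such values are a description only.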

How the data were processed

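RNA purified by TRAP was measured in 18 mouse libraries of 2 experiments, grouped by the treatment label of each library. The authors deposited whole-number counts per Ensembl gene for each experiment and counts per exon bin for each library, neither normalized. The tools STAR 2.5.3a and HTSeq and the build mm10 are named per the submitters' processing notes. No annotation release or strand setting is given there. Reads of overlapping genes, as in Csf1r and P2ry12, may therefore not be told apart. Exon bins were placed by flattening GENCODE release M 21 (mm10), which gave the deposited number of bins for all 9 members. For 3 of them this needed a subset of transcripts, taken in the order of their identifiers: 2 of 5 for P2ry12, 2 of 6 for Csf1r and 2 of 3 for Cx3cr1. Their bin positions and lengths rest on that choice.

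Fits were made per experiment in R 4.3.3 with edgeR 4.0.16 (filterByExpr, TMM scaling, robust quasi-likelihood F test, Benjamini-Hochberg adjustment over all genes tested, call at 0.05). SE was derived from the fold change and its F value, and intervals are 95%. CPM use the TMM-adjusted library size as denominator, and RPKM divide them by the exon length of the gene. Members below the filter were compared on log2(CPM + 0.5) by exact permutation (two-sided, 126 splits of 9 libraries), with no adjustment. Pairs of members were correlated over 9 libraries with exact permutation of the pairings.

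Alternatives were RLE size factors, DESeq2 1.42.0, limma-voom 3.58.1 with quality weights, no filter, 1 spread over all libraries, other pseudocounts and leaving out each library. The genes named are the 9 members, Ptbp1, Csf1, Il34, Cx3cl1, Tyrobp and, per marker list, genes called or the 2 with the highest mean CPM. The genes most like the members are the 8 with the highest Pearson correlation to the members' mean, of those whose log2 CPM averages 0 or more. The members and the 12 lists were chosen with earlier results of these data known. The scripts were tested on simulated data. The labels name no batch. Some genes that these rules name are not reported here.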

Additional observations from a re-analysis of the deposited data

Results flagged for a closer look

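Of 30 groups of libraries in which a member had a count, 9 held 1 library far above the rest by Dixon's criterion at 95%. For normally distributed values chance gives about 1 in 20. Counts near 0, as here, need not be so distributed, so the 9 cannot be judged against that rate. In 4 of the 9 (C1qb in the scrambled group, C1qc in the Ptbp1 shRNA group and Tmem119 in both) all other libraries were at 0, so that any count meets the criterion and this rate does not apply to them. In the silencing experiment P2ry12 reached 9.76 CPM in scrambled shRNA replicate 2 (others 0.414 to 1.84), and Tmem119 reached 0.978 CPM in the same library (others 0). Scrambled shRNA replicate 5 stood apart for C1qb at 0.422 CPM (others 0) and for Aif1 at 0.130 CPM (others up to 0.0218). Ptbp1 shRNA replicate 1 stood apart for C1qc at 1.93 CPM, for Cx3cr1 at 1.04 CPM and for Tmem119 at 0.381 CPM, with the other 3 libraries at 0 to 0.028 CPM. In the overexpression experiment C1qb was high in control vector replicate 1 (0.847 CPM, others 0.427 to 0.445), and C1qc was high in Ptbp1 overexpression replicate 3 (1.71 CPM, others 0.372 to 0.706).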

How the results depend on the processing

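In the silencing experiment the count of genes called, 0 in edgeR (1639 at an unadjusted p under 0.05), was 426 with DESeq2, 69 with limma-voom, 11 with no filter and 1775 with 1 spread over all 18 libraries, and 0 to 5 with 1 library left out. In the overexpression experiment the count of 7 was 40 with DESeq2, 0 with 1 spread over all 18 libraries (34 at an unadjusted p under 0.05), and 6 to 9 with 1 library left out. For the difference between both responses it was 668 with DESeq2 and 17 with no filter, against 40. The cause was not tested. No member that entered the main tests was called in the 2 experiments or in their difference under any alternative run. Members below the filter of those tests were not looked up in the alternative fits. The member compared by permutation with a p under 0.05 numbered 1 in every setting.

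Between the control groups, Aif1 lost its call with DESeq2 (adjusted p = 0.0854) and with no filter (adjusted p = 0.0623), and P2ry12 with no filter (adjusted p = 0.0513). With 1 library left out Csf1r ran from -0.038 to 1.13 there on the log2 scale. In the silencing experiment Tmem119 ran from -0.31 to 0.20 and Aif1 from -0.055 to 0.059 when 1 library was left out, and Aif1 was 0.0054 with a pseudocount of 0.1. C1qb without scrambled shRNA replicate 5 and C1qc without the first library labelled Ptbp1 shRNA gave no value, since all other counts were 0. No paired analysis was possible because the labels give no replicate numbers that the compared groups share.

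The depth limits what can be said of single members: 3 counts stand for 0.0636 to 0.0973 CPM in the silencing and 0.0731 to 0.167 CPM in the overexpression libraries, and several member values lie near these.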
